A study of Mus musculus with 4 samples.

Results

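Trp53, the mouse gene for the transcription factor p53, and 9 genes that p53 activates were followed across 4 RNA-seq libraries of mouse embryonic fibroblasts (MEFs). These 10 genes were taken from the 23005 genes and unnamed transcripts of the deposited table by matching each RefSeq transcript accession to a mouse symbol. Where a gene had several transcript entries, the entry with the highest mean over the libraries was kept, which concerned Trp53 alone (2 entries). The groups were cells labelled Mll1-/- given tumour necrosis factor alpha (TNF), cells labelled Mll1-/- given control solution, wild-type cells (Mll1+/+) given TNF, and wild-type cells given control solution. Mll1, now Kmt2a, encodes a methyltransferase of histone H3 lysine 4. TNF was given for 4 hr at 10 ng/ml, although the treatment protocol writes the same figure with another unit. The cells of 3 independent treatments were pooled for each group, which is thus 1 library. There is no spread between replicates, no difference was tested, and every value describes 4 libraries. The labels call the cells a MEF line and do not say how the cultures were established, from how many embryos they came, or which part of Mll1 is disrupted.

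The transcript of the targeted gene did not separate the groups. Kmt2a stood at 1.66 (TNF) and 2.02 RPKM (control) in the libraries labelled Mll1-/-, against 2.11 (TNF) and 1.85 RPKM (control) in the wild-type libraries. RPKM expresses reads relative to the length of a transcript and the size of the library. A value summed over the whole transcript does not check an allele that still makes RNA, so the genotype rests on the labels. The totals behind the values were 19306506 to 27977248 reads. Reads summed over all transcript entries came to more, between 33095027 and 49021664, and how reads were shared between entries is not known. All 8 fibroblast markers found in the table reached 1 RPKM in both libraries labelled Mll1-/-, against 5 of 8 in both wild-type libraries, where decorin (Dcn) was listed at 0. By the size rule given below, 6 of the 8 were higher in the libraries labelled Mll1-/- in both comparisons. The shares of all genes were 7.11% (control) and 6.71% (TNF). The median log2 ratio of the 8 was 2.02 with control solution and 2.09 with TNF, against -0.07 and -0.05 over all genes. The epithelial markers summed to between 0.694 and 1.04 RPKM. The endothelial markers summed to 0.172 (TNF) and 0.193 RPKM (control) in the libraries labelled Mll1-/-, against 0.897 (TNF) and 0.776 RPKM (control) in wild type. The 2 blood cell markers in the table summed to 0 (TNF) and 0.175 RPKM (control) in the libraries labelled Mll1-/-, against 1.44 (TNF) and 1.85 RPKM (control) in wild type, nearly all from the globin gene Hba-a1 (0 and 2 reads against 23 and 29). The part of other cells in the differences between genotypes was not tested.

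p53 is held low in unstressed cells by the ubiquitin ligase Mdm2, which marks it for destruction. DNA damage, oncogene signals and other stresses break that hold, after which p53 binds response elements near its target genes. The targets arrest the cell cycle, repair DNA, limit growth signalling or start apoptosis, and Mdm2 is itself a target, which closes a feedback loop. In cultured MEFs the pathway is known to be engaged by culture stress and to limit how long the cells proliferate. p53 is controlled largely at the level of protein, which these libraries do not measure.

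A p53 response element is a pair of motifs of 10 bases, called decamers here. RefSeq promoter windows (GRCm38.p6, 250 bases before to 50 after a transcription start) were matched by symbol for 6 of the 10 genes, with 8 windows in all. The p53 decamer, which is its own reverse complement and so covers both strands, was found by exact match in 4 of the 6 genes. It was present in 8.36% of all 32851 windows. The 250 bases before the start of those 4 genes are shown because they hold these letters. With control solution 3 of the 4 (Mdm2, Ccng1 and Bax) were lower by the size rule given below, as were 7.99% of all genes compared. Ccng1 and Bax fell short of that rule under other settings, also given below. Perp and Trp53inp1, which were lower too, had no window, and a link between decamer and level was not tested. Capitals mark the decamer.

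Mdm2, GRCm38.p6 chr10:117710759-117711008, minus strand: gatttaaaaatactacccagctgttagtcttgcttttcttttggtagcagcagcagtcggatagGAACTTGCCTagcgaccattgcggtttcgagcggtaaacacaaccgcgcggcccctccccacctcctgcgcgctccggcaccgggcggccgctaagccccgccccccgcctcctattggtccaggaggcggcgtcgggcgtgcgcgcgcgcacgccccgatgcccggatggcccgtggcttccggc
Ccng1, GRCm38.p6 chr11:40755287-40755536, minus strand: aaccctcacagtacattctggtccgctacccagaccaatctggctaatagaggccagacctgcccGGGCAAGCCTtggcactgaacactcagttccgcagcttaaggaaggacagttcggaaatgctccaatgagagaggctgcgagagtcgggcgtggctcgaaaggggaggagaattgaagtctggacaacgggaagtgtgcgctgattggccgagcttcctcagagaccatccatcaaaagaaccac
Bax, GRCm38.p6 chr7:45466899-45467148, minus strand: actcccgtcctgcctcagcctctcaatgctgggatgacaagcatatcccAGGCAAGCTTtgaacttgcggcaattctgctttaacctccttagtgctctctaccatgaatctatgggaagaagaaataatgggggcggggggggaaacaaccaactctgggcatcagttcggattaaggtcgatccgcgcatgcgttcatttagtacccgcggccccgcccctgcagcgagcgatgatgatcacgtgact
Trp53, GRCm38.p6 chr11:69580109-69580358, plus strand: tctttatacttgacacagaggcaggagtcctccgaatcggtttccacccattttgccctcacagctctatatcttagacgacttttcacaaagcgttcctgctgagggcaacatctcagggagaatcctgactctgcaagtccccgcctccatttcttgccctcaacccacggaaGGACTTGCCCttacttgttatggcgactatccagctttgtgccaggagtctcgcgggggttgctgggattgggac

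The decamer began 201 bases before the start in Bax, 186 in Mdm2, 185 in Ccng1 and 75 in Trp53. Bax also held a pair of decamers 1 base apart with 2 mismatches, a pattern present in 2.12% of all windows when spacers up to 13 bases are allowed. The windows of Bbc3 and Sesn2 held no exact decamer, which says only that these letters are not in those windows. Mdm2 had 35 CG dinucleotides in its 300 bases, Bbc3 between 30 and 39 and Sesn2 23. Bax had 19, Ccng1 14 and Trp53 10, and all 6 genes were above the median of 7 over all windows. A match is a description of the sequence and not evidence of binding.

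With control solution, 5 of the 10 genes were lower in the library labelled Mll1-/- than in the wild-type library past the size rule, which is a difference of 1 or more in log2(RPKM + 0.5), and 1 was higher. These were Perp, Trp53inp1, Mdm2, Ccng1 and Bax, all lower, and Pmaip1, which was higher. Among all 14386 genes and unnamed transcripts with at least 1 RPKM in a library, 7.99% were lower by this rule and 7.11% higher (15.1% in all). With TNF, 4 of the 10 were lower and 1 was higher, beside 4.5% and 6.71% of all genes (11.2% in all). The remaining genes also had smaller values in the libraries labelled Mll1-/-, so that 9 of 10 lay below 0 in each comparison, where 55.0% (control) and 54.8% (TNF) of all genes did. The median of the 10 log2 ratios was -0.93 with control solution and -0.80 with TNF, against -0.07 and -0.05 over all genes. The members, and the gene lists further below, were chosen with earlier results of these data known. Their counts and medians beside those of all genes are thus a description and no test. Both libraries labelled Mll1-/- stood below both wild-type libraries for 9 of the 10 genes, as they did for 42.7% of all genes. The control pair and the TNF pair have no library in common. Both set the same cells against each other, so a lasting difference between the cultures would appear in both.

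**Figure D1:**
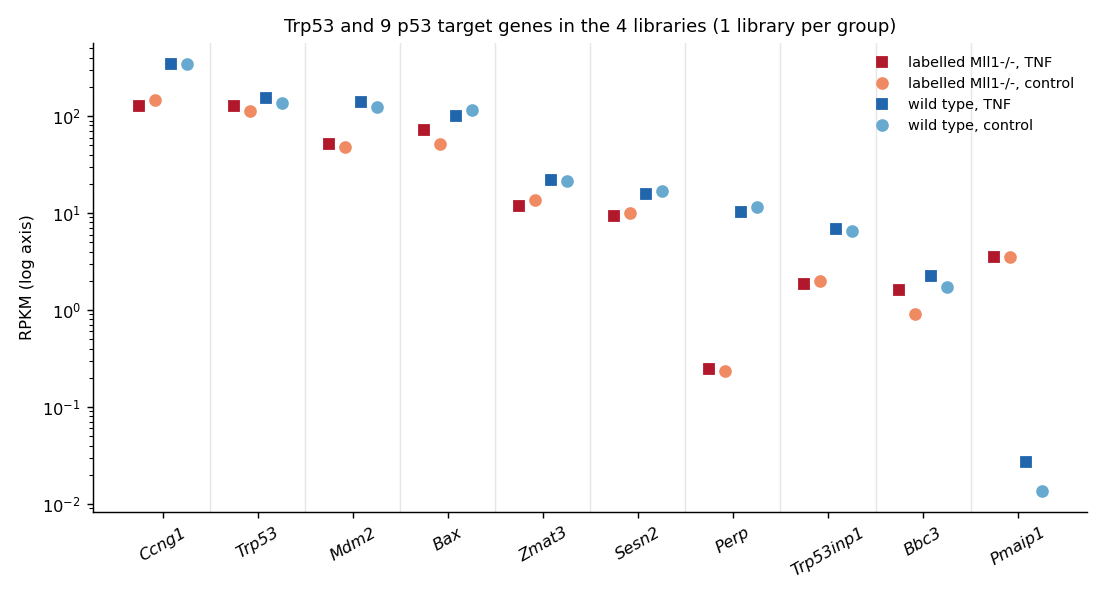
RPKM (log axis) of the 10 genes in each of the 4 libraries, with 1 point per library, squares for TNF and circles for control solution. Both points labelled Mll1-/- lie below both wild-type points for every gene but Pmaip1, as they do for 42.7% of all genes. The wild-type values of Pmaip1 rest on 2 and 1 reads.

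Trp53 itself differed least between the genotypes. It stood at 127 (TNF) and 113 RPKM (control) in the libraries labelled Mll1-/-, against 155 (TNF) and 136 RPKM (control) in wild-type cells. The ratio of reads, Mll1-/- over wild type, was 0.819 with TNF (95% counting interval 0.789 to 0.850) and 0.827 with control solution (0.796 to 0.861). Counting intervals here are exact binomial (Clopper-Pearson) intervals of reads recovered from the RPKM steps. They take each read as independent, which was not tested, and they cover counting error only. The log2 difference with control solution, -0.27, turned to 0.03 when libraries were scaled without the 20 most abundant genes, a choice that moves the median of all genes in that comparison by 0.28. The second transcript entry of Trp53 had 119, 106, 145 and 127 RPKM in the same order of libraries.

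Mdm2 and Ccng1, which p53 induces and which act as negative regulators of the pathway, were lower. Mdm2, the ubiquitin ligase that p53 both activates and is destroyed by, stood at 52.1 (TNF) and 47.6 RPKM (control) in the libraries labelled Mll1-/-, against 140.1 (TNF) and 123 RPKM (control) in the wild-type libraries. Both libraries labelled Mll1-/- lay below both wild-type libraries, as they did for 42.7% of all genes. The ratio of Mdm2 was 0.372 with TNF (counting interval 0.357 to 0.387) and 0.388 with control solution (0.372 to 0.404). Ccng1 encodes cyclin G1, which recruits a phosphatase to Mdm2. Its values were 127 (TNF) and 147 RPKM (control) in the libraries labelled Mll1-/-, against 342 (TNF) and 344 RPKM (control) in wild type, the highest of the 10 genes in every library. The ratio of Ccng1 was 0.372 with TNF (0.364 to 0.381) and 0.426 with control solution (0.417 to 0.436). With libraries scaled without the 20 most abundant genes, the control value of Ccng1 was -0.93 on the log2 scale, short of the size rule. In a bulk library, fewer cells that express a gene and less RNA per cell cannot be told apart.

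Among the effectors of apoptosis, Perp stood furthest below wild type. Perp encodes a membrane protein of desmosomes that p53 induces during apoptosis. It had 9 reads in each library labelled Mll1-/- (0.245 RPKM with TNF and 0.236 with control solution), against 541 and 612 reads in wild type (10.2 RPKM with TNF and 11.6 with control solution). The ratio was 0.0241 with TNF (counting interval 0.0110 to 0.0461) and 0.0203 with control solution (0.00924 to 0.0388). The log2 difference of Perp, -4.04 with control solution, ranged from -5.12 to -3.35 over the alternatives because its low values stand near the added 0.5. A lower log2 difference than that of Perp was found for 0.202% of all genes compared with TNF and 0.167% with control solution. Perp passed the filter of 1 RPKM only through the wild-type libraries, in which it is high, so this rank is a description and no test.

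Bax encodes the protein that permeabilises the outer mitochondrial membrane. It stood at 71.9 (TNF) and 51.9 RPKM (control) in the libraries labelled Mll1-/-, against 101 (TNF) and 114 RPKM (control) in wild type. The ratio was 0.711 with TNF (0.663 to 0.762) and 0.453 with control solution (0.420 to 0.489). Bax has the shortest transcript of the 10 genes (869 bases), and the control value of -1.13 was -0.75 with a trend in transcript length removed and -0.84 when scaling ignored the 20 most abundant genes. Bbc3, the gene for the BH3-only protein Puma that sets Bax free, was low everywhere. It had 61 (TNF) and 36 reads (control) in the libraries labelled Mll1-/-, against 125 (TNF) and 94 reads (control) in wild type, or 1.60 and 0.907 RPKM against 2.26 and 1.72. The ratio of Bbc3 was 0.707 with TNF (0.512 to 0.968) and 0.529 with control solution (0.350 to 0.784).

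Pmaip1, which encodes the BH3-only protein Noxa that binds Mcl1, was the single gene higher in the libraries labelled Mll1-/-. It had 182 (TNF) and 188 reads (control) there, or 3.55 and 3.53 RPKM, against 2 (TNF) and 1 read (control) in wild type, or 0.0269 and 0.0136 RPKM. The ratio was 132 with TNF (counting interval 36.0 to 1097) and 260 with control solution (46.0 to 10307), so the size of the ratio is known only within those wide bounds. On the log2 scale the differences were 2.94 and 2.97, and between 2.15 and 4.997 over the alternatives. Pmaip1 passed the filter of 1 RPKM only through the libraries in which it is high. Its place in the order of the 10 genes was 7th in both libraries labelled Mll1-/- and last in both wild-type libraries, while Perp was last and 7th.

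Trp53inp1 was past the size rule in both comparisons, and Sesn2 and Zmat3 were not. Trp53inp1, whose product promotes autophagy and the phosphorylation of p53, stood at 1.85 (TNF) and 1.99 RPKM (control) in the libraries labelled Mll1-/-, against 6.91 (TNF) and 6.56 RPKM (control) in wild type. The ratio was 0.268 with TNF (0.229 to 0.313) and 0.303 with control solution (0.260 to 0.351), the smallest after Perp. Sesn2 encodes sestrin 2, a leucine sensor that restrains mTORC1 and that Atf4 also induces. It had 9.35 (TNF) and 9.99 RPKM (control) in the libraries labelled Mll1-/-, against 15.8 (TNF) and 16.8 RPKM (control) in wild type, with ratios of 0.593 (0.532 to 0.660) and 0.596 (0.538 to 0.660). Zmat3 encodes a zinc finger protein that binds RNA and regulates splicing. Its values were 11.7 (TNF) and 13.5 RPKM (control) in the libraries labelled Mll1-/-, against 21.8 (TNF) and 21.3 RPKM (control) in wild type, with ratios of 0.537 (0.508 to 0.567) and 0.634 (0.602 to 0.668). The Zmat3 locus overlaps the gene 4930429B21Rik, and the labels do not mention strand.

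**Figure D2:**
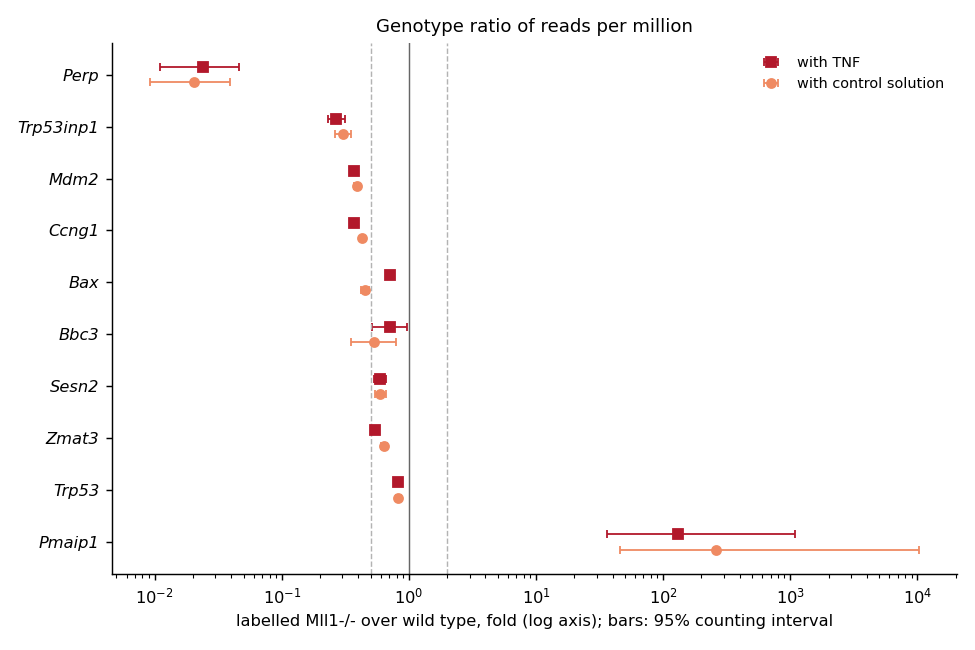
Ratio of reads, labelled Mll1-/- over wild type (log axis), for each gene with TNF (squares) and with control solution (circles), with 95% counting intervals and dashed lines at ratios of 0.5 and 2. Perp stands at 0.0241 and 0.0203, Pmaip1 at 132 and 260, and the other 8 genes between 0.268 and 0.827.

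The order of the 10 levels was otherwise much the same in every library. Ccng1 was highest and Trp53 second, Zmat3 and Sesn2 were 5th and 6th, and Trp53inp1 and Bbc3 were 8th and 9th. Mdm2 stood above Bax in both wild-type libraries (140.1 against 101 RPKM with TNF, 123 against 114 with control solution), whereas Bax stood above Mdm2 in both libraries labelled Mll1-/- (71.9 against 52.1 and 51.9 against 47.6). With TNF, Ccng1 and Trp53 were nearly level in the library labelled Mll1-/- (127.3 and 126.7 RPKM). No spread between replicates exists against which to judge neighbours in this order.

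Of 42 other known p53 targets listed, 36 could be compared. Of the 36, 27 were below 0 with control solution and 26 with TNF, with medians of -0.42 and -0.34. By the size rule 5 were lower and 3 higher with control solution, and 2 lower and 3 higher with TNF. Among all genes 55.0% (control) and 54.8% (TNF) were below 0, 7.99% were lower and 7.11% higher by the rule with control solution, and 4.5% were lower and 6.71% higher with TNF. The lower genes were Dcxr, a carbonyl reductase gene (6.26 and 5.04 RPKM in the libraries labelled Mll1-/- with TNF and control, against 31.7 and 30.7 in wild type), the growth differentiation factor gene Gdf15 (log2 -1.30 with control solution, on 8 reads against 49), the caspase adaptor gene Pidd1 (-1.27), the ribosomal protein paralogue gene Rps27l (-1.15) and the growth arrest gene Gadd45a (-1.14). With TNF, Dcxr (-2.25) and the apoptosome gene Apaf1 (-1.12) were past the rule. The tetraspanin gene Cd82 was higher, at 36.0 (TNF) and 23.3 RPKM (control) in the libraries labelled Mll1-/-, against 2.61 (TNF) and 1.09 RPKM (control) in wild type. Dram1, a lysosomal autophagy gene (log2 1.80 with TNF and 1.62 with control), and the apoptosis inhibitor gene Tnfaip8 (1.27 and 1.42) were higher too. Rps27l and Gadd45a no longer passed the rule with the length trend removed or when scaling ignored the 20 most abundant genes. Cdkn1a, the cell cycle inhibitor p21 and the best known target, named here after its values were seen, stood at 75.3 (TNF) and 68.1 RPKM (control) in the libraries labelled Mll1-/-, against 121 (TNF) and 126 RPKM (control) in wild type (log2 -0.68 and -0.89).

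Of 27 listed genes that control p53, 25 could be compared, and their medians were -0.07 with control solution and -0.04 with TNF. With control solution 2 were higher and 2 lower by the size rule, and with TNF 1 was higher and 1 lower. The shares of all genes past the rule in either direction were 15.1% and 11.2%, and the regulators' counts lie near or below them. When scaling ignored the 20 most abundant genes, 3 were higher and 0 lower with control solution, and 2 higher and 1 lower with TNF. The shares of all genes in either direction were then 14.9% and 11.2%. Hipk2, a kinase that phosphorylates p53, was higher, at 11.1 (TNF) and 13.6 RPKM (control) in the libraries labelled Mll1-/-, against 4.95 (TNF) and 4.87 RPKM (control) in wild type. Topors, a ubiquitin and SUMO ligase gene (log2 1.22 with control solution and 0.90 with TNF), and the deubiquitinase gene Usp7 (0.91 and 0.58) followed. Ppp1r13b, whose product ASPP1 directs p53 to apoptotic targets, was lower, at 2.06 (TNF) and 2.34 RPKM (control) in the libraries labelled Mll1-/-, against 5.07 (TNF) and 5.88 RPKM (control) in wild type. The phosphatase gene Ppm1d, itself a target of p53, was at -0.69 with TNF. Cdkn2a, the locus of the Mdm2 inhibitor p19Arf and of p16Ink4a, stood at 34.2 (TNF) and 17.1 RPKM (control) in the libraries labelled Mll1-/-, against 34.8 (TNF) and 35.9 RPKM (control) in wild type. Its control difference of -1.05 was -0.66 with the length trend removed. The difference between its log2 TNF ratios, Mll1-/- minus wild type, was 1.02, or 0.79 with that trend removed. The p53 relatives Trp63 and Trp73 were below 1 RPKM in every library.

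In the Bcl2 family, which holds the partners and opponents of Bax, Bbc3 and Pmaip1, 11 of 15 listed genes could be compared. Their medians were -0.06 with control solution and -0.18 with TNF. Bok, a Bax relative, was the highest, at 16.1 (TNF) and 14.2 RPKM (control) in the libraries labelled Mll1-/-, against 0.449 (TNF) and 0.604 RPKM (control) in wild type. Bcl2, which opposes apoptosis, stood at 3.51 (TNF) and 5.24 RPKM (control) in the libraries labelled Mll1-/-, against 1.48 (TNF) and 1.31 RPKM (control) in wild type. Bcl2l1, the gene of the survival protein Bcl-xL, was lower with TNF (29.9 against 60.6 RPKM, log2 -1.01, and -0.99 with the length trend removed) and at -0.77 with control solution. With control solution the BH3-only gene Bad was the lowest of the family, at -0.95, and with TNF the BH3-only gene Bid stood next above Bcl2l1, at -0.47.

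**Figure D3:**
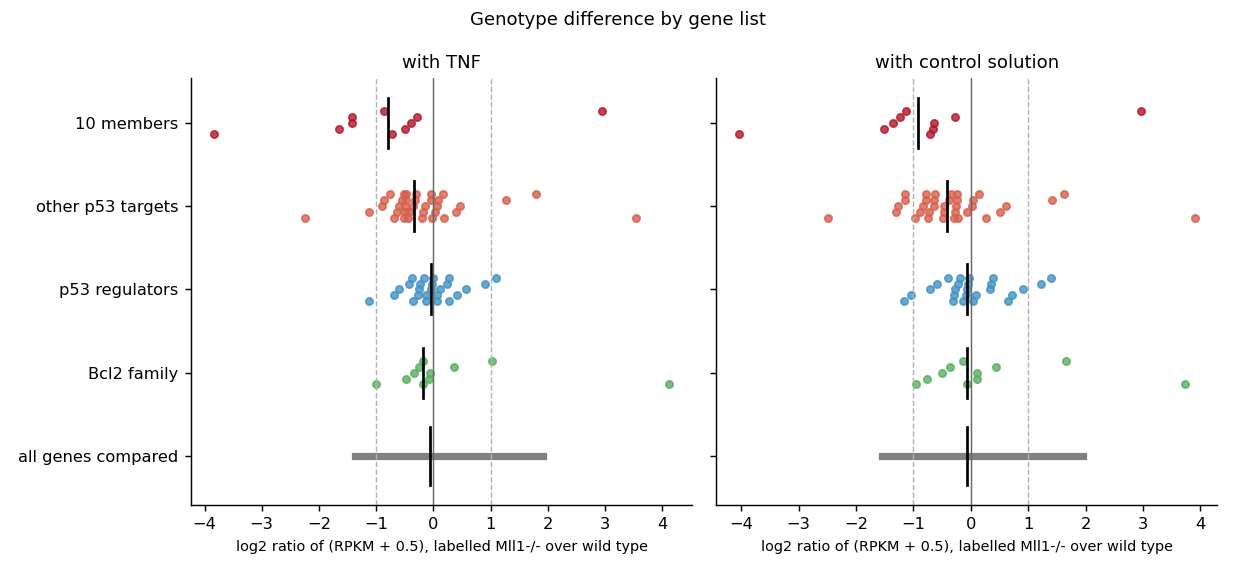
Log2 ratio of (RPKM + 0.5), labelled Mll1-/- over wild type, for the 10 members, 36 other p53 targets, 25 regulators and 11 Bcl2 family genes with TNF (left) and with control solution (right). Each point is a gene and black bars are medians, the grey bar spans the middle 95% of all 14386 genes compared, and the medians of the members (-0.80 and -0.93) lie furthest left. Members and lists were chosen with earlier results of these data known, so their positions are a description and no test.

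A trend with transcript length runs through the comparison of control libraries. Its median log2 ratio was -0.53 in the shortest decile of transcripts and 0.25 in the longest, and the values with TNF were -0.17 and 0.01. For TNF over control the values were 0.31 and -0.20 in cells labelled Mll1-/-, and -0.01 and 0.03 in wild type. The comparisons with the steeper trend thus both include the control library labelled Mll1-/-, so the trend also bears on the TNF ratios of cells labelled Mll1-/-. At the lengths of the 10 genes the running median with control solution lay between -0.39 (Bax) and 0.26 (Zmat3). After removal of the trend 4 of the 10 genes were lower past the size rule with control solution (Perp, Trp53inp1, Mdm2 and Ccng1) and 1 was higher, and with TNF the counts stayed at 4 and 1. Among all genes 703 were then lower and 1184 higher with control solution (13.1% in all). With TNF 585 were lower and 1015 higher (11.1% in all). Ccng1 (-1.30), Trp53inp1 (-1.69) and Zmat3 (-0.90) were then further below 0 with control solution than before, and Trp53 was at -0.09.

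**Figure D4:**
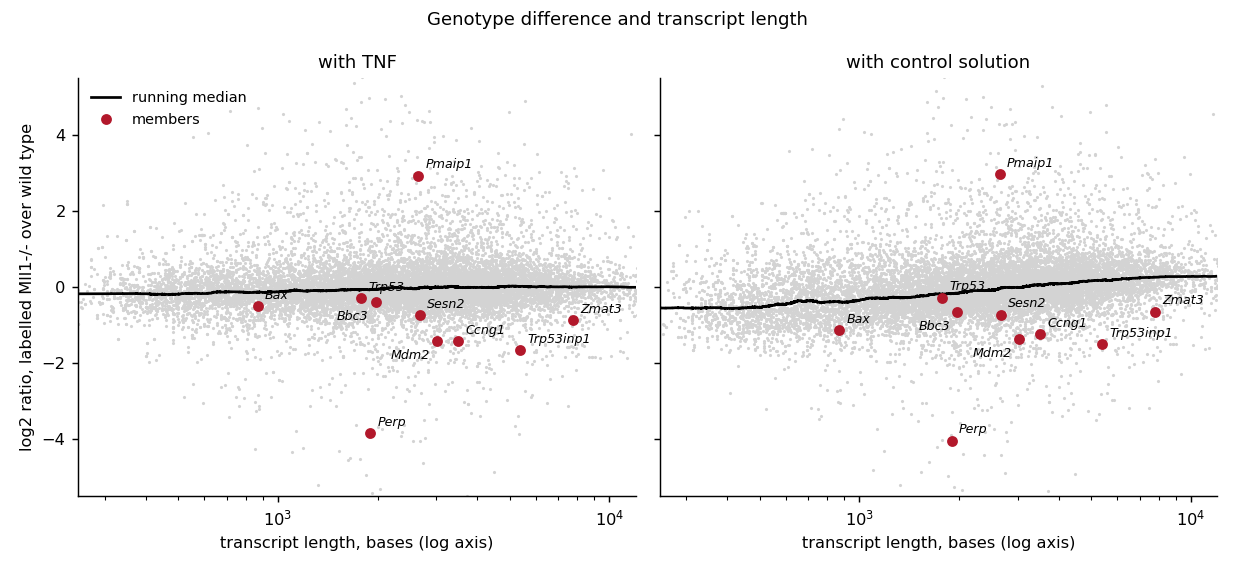
Log2 ratio, labelled Mll1-/- over wild type, against transcript length (log axis), with grey points for all genes compared, a black running median and red points for the 10 members, with TNF (left) and with control solution (right). A few points fall outside the axes, and 9 members lie below the running median in both panels. By construction about as many of all genes lie below a running median as above it. Trp53 is the nearest of the 9 with control solution, at -0.09 from it.

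TNF moved none of the 10 genes past the size rule in either genotype. The rule was met by 0.848% of all genes in cells labelled Mll1-/- and by 0.577% in wild-type cells. The median log2 ratio of the 10, TNF over control, was 0.01 in cells labelled Mll1-/- and 0.03 in wild type. On the log2(RPKM + 0.5) scale Bbc3 had the largest value in both (0.58 in cells labelled Mll1-/- and 0.32 in wild type), with a ratio of reads of 1.76 in cells labelled Mll1-/- (counting interval 1.15 to 2.74) and 1.32 in wild type (1.0005 to 1.74). Trp53 was at 1.12 (1.07 to 1.17) in cells labelled Mll1-/- and 1.13 (1.10 to 1.17) in wild type. Mdm2 was at 1.09 (1.04 to 1.15) and 1.14 (1.11 to 1.17) in the same order. When scaling ignored the 20 most abundant genes, the log2 values in cells labelled Mll1-/- were 0.0016 for Trp53, in place of 0.17, and -0.03 for Mdm2, in place of 0.13. With the length trend removed that of Trp53 was 0.07. Ccng1 was at 0.867 (0.843 to 0.892) in cells labelled Mll1-/- and 0.993 (0.978 to 1.01) in wild type.

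Bax had TNF ratios on opposite sides of 1, at 1.39 (1.27 to 1.51) in cells labelled Mll1-/- and 0.884 (0.837 to 0.934) in wild type. Zmat3 was at 0.866 (0.813 to 0.923) in cells labelled Mll1-/- and 1.02 (0.982 to 1.07) in wild type, and with the length trend removed its log2 value in cells labelled Mll1-/- was 0.01. The difference between the log2 TNF ratios, Mll1-/- minus wild type, ranged over the 10 genes from -0.23 (Zmat3) to 0.64 (Bax), and 0 of 10 were past the size rule, which 1.18% of all genes met. From reads alone the difference of Bax was 0.65 (normal interval 0.50 to 0.80) and that of Trp53 -0.01 (-0.09 to 0.06).

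**Figure D5:**
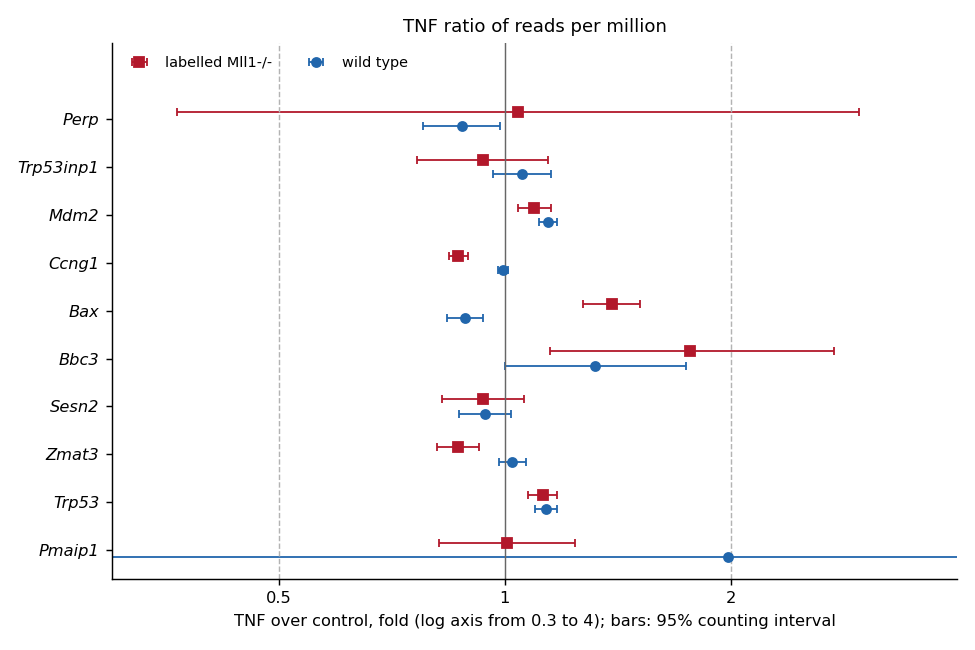
Ratio of reads, TNF over control (log axis), for each gene in cells labelled Mll1-/- (squares) and wild-type cells (circles), with 95% counting intervals and dashed lines at 0.5 and 2. All 20 ratios lie between 0.866 and 1.98, and the wild-type interval of Pmaip1 (0.103 to 117, from 2 and 1 reads) runs off the axis.

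Among the wider lists, the death receptor gene Fas, a target of both p53 and NF-kB, was the one gene past the size rule with TNF. Fas stood at 13.0 RPKM with TNF and 3.69 with control solution in cells labelled Mll1-/-, and at 9.72 and 2.45 RPKM in wild type. With the length trend removed Cd82 passed the rule too in wild type. Of all genes 0.848% met the rule in cells labelled Mll1-/- and 0.577% in wild type, and the counts of 0 below stand beside these shares. Gadd45a (log2 0.84) followed in cells labelled Mll1-/- and Cd82 (0.97) in wild type, while Apaf1 (-0.35) and the receptor gene Eda2r (-0.29) were lowest in cells labelled Mll1-/-, and Gdf15 (-0.36) and Trp53i13 (-0.35) in wild type. Of the 25 regulators 0 passed the rule in either genotype. Cdkn2a (0.98) and the ubiquitin ligase gene Rchy1 (0.31) were highest and the acetyltransferase gene Ep300 (-0.39) and Usp7 (-0.29) lowest in cells labelled Mll1-/-. In wild type Mdm4 (0.20), the Mdm2 relative that inhibits p53, and the deacetylase gene Sirt1 (0.16) were highest, and the kinase gene Dyrk2 (-0.21) and Ppp1r13b (-0.20) lowest. In the Bcl2 family 0 of 11 passed it. The BH3-only gene Bcl2l11, which encodes Bim, was highest in both (0.58 in cells labelled Mll1-/- and 0.86 in wild type), followed by Bad (0.40) and Bid (0.32) in the same order, with Bcl2 (-0.52) and Bcl2l1 (-0.45) lowest in cells labelled Mll1-/- and Bad and Bok (-0.22 each) in wild type.

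The genes whose profile over the 4 libraries came closest to those of Perp and Pmaip1, the members with the widest range, were sought among 9010 named genes with a mean of at least 3 RPKM. The measure was the root mean square difference of log2(RPKM + 0.5) after each gene was centred on its own mean. For Perp they were Stra6, a retinol transporter gene (0.06), the complement regulator gene C4bp (0.08) and Cyp4a12b (0.11), a member of a multigene family whose reads may be shared. For Pmaip1, whose own mean was below that limit, they were Tmem151a (0.04), the G protein subunit gene Gng11 (0.05) and the carbonic anhydrase gene Car13 (0.07). This likeness depends on the added 0.5 and does not hold for plain ratios. In wild type Tmem151a stood at 0.392 (TNF) and 0.432 RPKM (control), and Pmaip1 at 0.0269 and 0.0136. In the libraries labelled Mll1-/- the values were 6.80 and 6.86 for Tmem151a, and 3.55 and 3.53 for Pmaip1. With 4 libraries such likeness mostly reflects the contrast between the genotypes.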

How the data were processed

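RNA of 4 libraries, 1 per group, was analysed. The deposited values are RPKM that the authors made, per the file headers, for 27344 transcript entries. The submitters' processing notes name TopHat and DESeq without version or role, while the sources used here name no build, annotation or read counter. Accessions were named by a RefSeq gene table (20845 entries) and GENCODE metadata (106).

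Whole reads were recovered from the RPKM steps in 99.99% of entries, within 0.0001 reads in all 4 libraries. In 1227 entries, none of them a member, the smallest fitting length was raised to a multiple near the transcript's GENCODE M21 length. Comparisons used log2(RPKM + 0.5) over genes that reached 1 RPKM in any library. A difference of 1 or more in size was counted. Ratios of reads carry 95% exact binomial intervals. Each group has 1 library, and no p-value is given. A model in which genotype and TNF effects add, which would leave 1 residual degree of freedom, was not fitted. Calculations used Python 3.11.15, numpy 2.4.6, pandas 2.3.3 and scipy 1.17.1, and the counts and intervals were tested on simulated data.

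The members and gene lists were chosen with earlier results of these data known. From each list of regulators, targets and Bcl2 genes, the 2 highest and 2 lowest values and those past the size rule are named. Alternatives were 10 changes of pseudocount, filter, scaling, length trend, entry choice and size rule. The gene lists were recomputed under 2 of these, a choice made after seeing the data. Listed genes that matched no entry were not analysed here.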

Additional observations from a re-analysis of the deposited data

Results flagged for a closer look

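Bax was singled out because its TNF response pointed in opposite directions in the genotypes. The counting interval lay wholly above 1 in cells labelled Mll1-/- and wholly below 1 in wild-type cells. The log2 ratio, TNF over control, was 0.47 in cells labelled Mll1-/- and -0.18 in wild-type cells, a difference of 0.64. With the trend in transcript length removed the values were 0.26 and -0.13, a difference of 0.40. The difference was not tested, since each genotype has 1 library per treatment. Bax has a short transcript (869 bases), and the running median of the log2 TNF ratio at that length was 0.21 in cells labelled Mll1-/- and -0.04 in wild type. The part of transcript length in the difference was not tested.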

How the results depend on the processing

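Under 10 alternatives the counts of members past the size rule stayed within 1.5 times the reported count in every comparison but 1: with a size rule of 1.5-fold, 1 member (Bax) passed in the difference between TNF responses, in place of 0. That rule was met there by 8.85% of all genes. With control solution the genotype count of 6 became 4 when scaling ignored the 20 most abundant genes, 5 with the length trend removed and 9 with a size rule of 1.5-fold. The shares of all genes past the rule were then 14.9%, 13.1% and 34.3%. With TNF the count of 5 became 7 with a size rule of 1.5-fold, beside 24.1% of all genes. When scaling ignored the 20 most abundant genes, the median log2 ratio with control solution was -0.64 for the members, -0.12 for other targets, 0.21 for regulators and 0.21 for the Bcl2 family, beside 0.21 for all genes compared. No member past the size rule changed direction under the alternatives. Of 89 member values recomputed per comparison, 88 kept their sign with control solution and 89 with TNF. For TNF against control the numbers were 80 in cells labelled Mll1-/- and 87 in wild type, since most values lie near 0. No paired analysis was possible because each group has 1 library. No library could be left out for the same reason. Depth limits Perp (9 reads in each library labelled Mll1-/-) and Pmaip1 (2 and 1 reads in wild type), and to a lesser extent Bbc3 (36 to 125 reads).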

Other observations

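Relatives of 3 members that stand in the wider lists had their own levels. Sesn1, the sestrin relative of Sesn2, stood at 10.2 (TNF) and 10.9 RPKM (control) in the libraries labelled Mll1-/-, against 8.84 (TNF) and 9.78 RPKM (control) in wild type (log2 0.19 and 0.15), whereas Sesn2 was at -0.72 in both comparisons. Ccng2, the relative of Ccng1, was at 2.08 (TNF) and 1.96 RPKM (control) in the libraries labelled Mll1-/-, against 3.12 (TNF) and 3.88 RPKM (control) in wild type. Mdm4 was at 7.27 (TNF) and 7.41 RPKM (control) in the libraries labelled Mll1-/-, against 6.68 (TNF) and 5.75 RPKM (control) in wild type, while the log2 values of Mdm2 were -1.42 with TNF and -1.36 with control solution. These genes were picked after their values were seen.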
